A study of Homo sapiens with 6 samples.

Results

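The stretch of mRNA that follows the stop codon was examined as a place of CELF1 association, using 20-bp bins of a RIP-Seq experiment (sequencing of RNA recovered with an immunoprecipitated protein). A bin was taken as a member when it was listed in all 3 peak lists and its centre lay within the first 200 nt of the 3′ UTR, counted along the spliced transcript from the stop codon. Transcripts were those with the longest coding sequence of each protein-coding gene, and only genes with a 3′ UTR of 1000 to 5000 nt were considered. There were 9048 such bins in 2233 genes, or 3.20% of the 282942 bins common to the 3 lists. SK-Mel-103 and UACC-62 are established human melanoma cell lines, both grown without further treatment. Cell lysates were immunoprecipitated with an antibody against CUGBP1, the older name of CELF1 (IP), and RNA of the same samples was sequenced without this step (input). SK-Mel-103 is represented by a single sample (replicate 1) and UACC-62 by 2 (replicates 1 and 3), each with its own input, and nothing in the labels says whether the latter came from separate cultures. Unless several genes or classes are named, 3 values in a row belong to SK-Mel-103, UACC-62 replicate 1 and UACC-62 replicate 3, in this order.

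CELF1 is an RNA-binding protein known for binding GU-rich elements. In the cytoplasm it can recruit deadenylases to mRNAs that carry such elements in their 3′ UTR, which shortens the life of the message, and stabilization and changes in translation have also been described. The 3′ UTR starts where ribosomes terminate. Its first part is common to transcripts that share a stop codon, whereas its distal part depends on the polyadenylation site used.

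The 3 lists held 816781, 780750 and 862731 bins, with 10958459, 11333805 and 14436573 IP reads. Corresponding input reads numbered 8453517, 10161917 and 8900292. No bin in any list had fewer than 4 IP reads. Input reads of the bins that did not pass are unknown, and each value below is therefore conditional on the bin having been listed. Markers of the melanocytic lineage differed between the lines. MITF had 18 input reads in the listed bins of SK-Mel-103 but 6034 and 5000 in the UACC-62 replicates, and SOX10 had 864, 2115 and 1080. TYR, DCT and S100B had listed reads in both UACC-62 replicates and were at 0 in SK-Mel-103, while PMEL, TYRP1 and GPR143 were at 0 in all 3 lists. Of the markers of other cell types, KRT5, KRT14, COL1A1 and COL1A2 were at 0 throughout, and PTPRC had 25 and 8 IP reads in the UACC-62 replicates.

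The following bins show the material (GRCh37, sequence of the transcript strand, all within 3′ UTRs). They are the bins with the most IP reads in 3 of the genes with the highest levels and then in 2 of those with the lowest, and capitals mark the short motifs compared further down.
CREBL2, chr12:12795021-12795040, + strand: ttactacctaCTGctcagta
INCENP, chr11:61919541-61919560, + strand: tggcatgccattgtggaggg
SIAH1, chr16:48395281-48395300, - strand: caacagtaaaccaCTGaaaa
YWHAE, chr17:1248601-1248620, - strand: taggttcCTGccCTGttggt
PA2G4, chr12:56506821-56506840, + strand: ccttccaacaacaaccagct
The INCENP bin held 170 IP reads over 22 of input, 178 over 20 and 223 over 23 in the 3 samples. The PA2G4 bin held 11 over 47, 13 over 80 and 20 over 52. Neither of these bins contains TGTTT or TGTGT.

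Not every gene had a member. Of 7987 eligible genes, 3624 had a bin of their 3′ UTR in all 3 lists, and 2233 of these (61.6%) had at least 1 within the first 200 nt. The members were unevenly spread over genes, with a median of 3 bins per gene, a single bin in 556 genes and every possible bin in 100 genes. A total of 1669 genes also had a common bin in the last 200 nt of the coding region, and 564 did not. For 133 member bins (1.47%), another transcript of the gene annotation is coding at that position. In genes with any common 3′ UTR bin, 9048 of the 36238 possible bins of the window were listed in all 3 samples. The share was 18.3% in the last 200 coding nt, and in the 3′ UTR it was 26.8% in the 200 nt after the window, 21.4% in the interior and 19.8% in the last 200 nt. The authors' filter of more than 30 reads would leave 948 members in 307 genes.

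The member bins took a smaller part of the IP reads than of the input reads. They held 215089, 191593 and 297618 IP reads, which corresponds to 1.96%, 1.69% and 2.06% of all IP reads in the lists. In the input these shares were 2.60%, 2.95% and 2.98%. The median member bin had 13, 11 and 17 IP reads and 12, 17 and 14 input reads. IP over input was then expressed per gene, on a log2 scale, as the reads in its member bins divided by the total of the list, with 1 read added. How reads of 40 nt were assigned to bins of 20 bp is not given in the sources used here, and neighbouring bins may share reads. Across the 1327 genes with at least 3 member bins the median level was -0.31 for SK-Mel-103 and -0.72 ± 0.20 (SD, n = 2) for UACC-62. The mean of the 3 samples was -0.58, and among bins with over 30 IP reads in every sample it was 0.27. That filter acts on the IP reads alone, which are the numerator of the level, and so favours higher values. In 737 of these genes (55.5%) the level was below 0 in all 3 samples, and in 335 (25.2%) it was above 0 in all 3. Once centred on the sample median, the level of a gene differed by a median of 0.35 between the UACC-62 replicates, and by 0.43 and 0.41 between SK-Mel-103 and either of them. Over genes, the levels of the UACC-62 replicates had a Pearson's r of 0.91, and those of SK-Mel-103 had 0.87 and 0.85 with either of them.

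Along the transcript, IP over input rose across the window. Reads were summed over the common bins in each step of 20 nt. The last 20 nt before the stop codon were at -0.79, -1.25 and -0.90. The first 20 nt after the stop codon gave -0.62, -1.06 and -0.72, and the following 20 nt were slightly lower at -0.69, -1.17 and -0.83. By nt 181 to 200 the values had reached -0.08, -0.39 and -0.23, and by nt 381 to 400 they were 0.08, 0.05 and 0.05. Both components moved. The mean number of IP reads per listed bin was 20.5, 18.3 and 29.1 at nt 1 to 20 and 25.8, 23.7 and 34.5 at nt 181 to 200. Input reads went the other way, from 24.3, 34.2 and 29.6 to 21.1, 27.9 and 24.98.

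**Figure D1:**
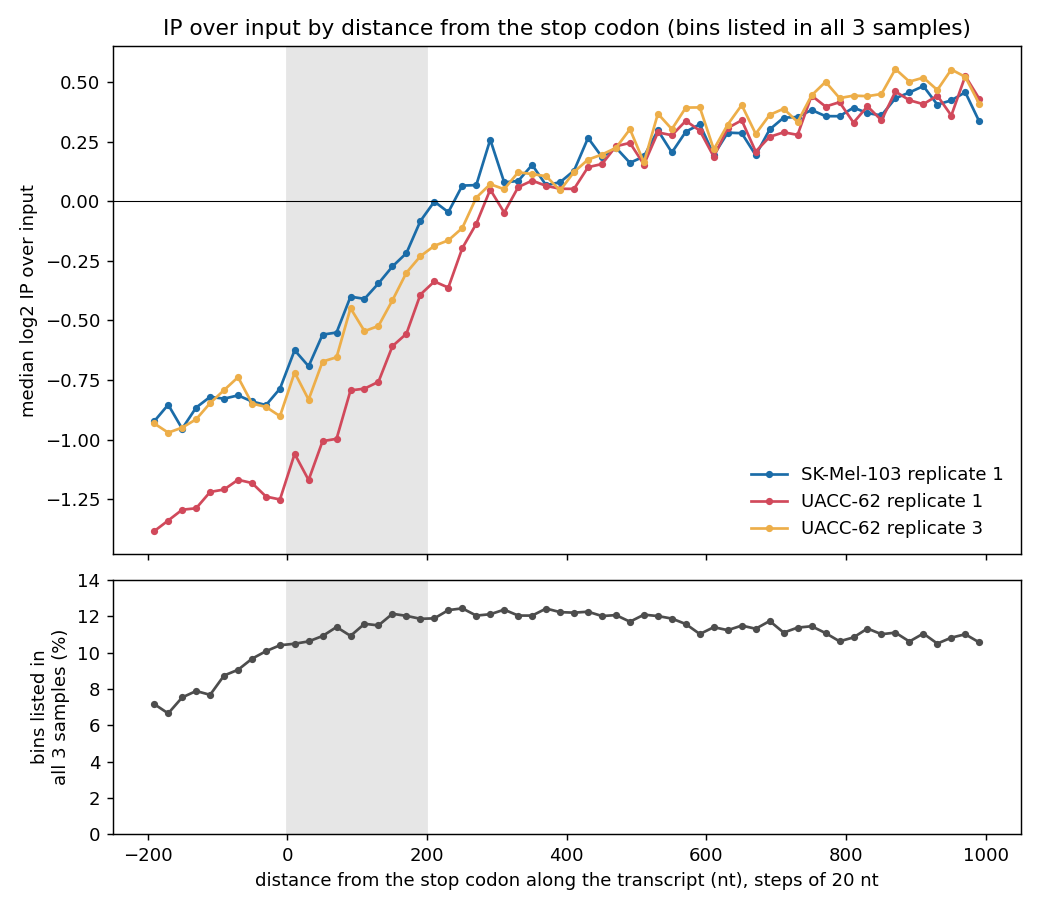
Upper panel, log2 IP over input by distance from the stop codon in steps of 20 nt (negative distances are coding), with a line for each sample. Reads were summed over the bins listed in all 3 samples, although the axis label reads median. Lower panel, the share of possible bins that were listed in all 3 samples. The shaded first 200 nt lie on a rising slope, from -0.62, -1.06 and -0.72 at nt 1 to 20 to -0.08, -0.39 and -0.23 at nt 181 to 200.

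Different genes contribute to different distances, and the same pattern was therefore examined in 388 genes with at least 5 common bins in each of 4 consecutive windows. Their median levels in SK-Mel-103 were -0.35 in the last 200 coding nt, 0.11 in the first 200 nt of the 3′ UTR, 0.53 in the next 200 nt and 0.53 in the 200 nt after that. UACC-62 replicate 1 gave -0.74, -0.25, 0.23 and 0.32 and UACC-62 replicate 3 gave -0.19, 0.18, 0.54 and 0.59. In each sample the 200 nt after the stop codon lay between the coding end and the rest of the 3′ UTR. The slope was also present inside the window. In 902 genes with at least 2 members in each part, the second 100 nt were higher than the first 100 nt by a median of 0.23, 0.23 and 0.13 in the 3 samples (0.19 ± 0.06, SD, n = 3), with 312 genes higher and 123 lower in all 3 (exact 2-sided sign-flip permutation test, p = 0.25, the smallest possible with 3 samples).

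The first 200 nt were next compared with 5 other regions of the same genes, each gene needing at least 3 common bins on both sides. Against the next 200 nt, the median difference over 1075 genes was -0.25, -0.35 and -0.24 (-0.28 ± 0.06, SD, n = 3). It was -0.49 ± 0.07 against the interior of the 3′ UTR (1193 genes) and -0.73 ± 0.12 against its last 200 nt (681 genes). Against the whole remaining 3′ UTR it was -0.41, -0.52 and -0.45 (-0.46 ± 0.06, 1247 genes). The coding end was the only region of these below the window, with differences of 0.32, 0.29 and 0.20 (0.27 ± 0.06, 893 genes). All 3 samples gave the same sign in each comparison, and each mean exceeded the spread between samples. With 3 samples the exact 2-sided sign-flip permutation test cannot go below p = 0.25, which was the value in each of the 5 comparisons, before and after Benjamini-Hochberg adjustment. Single genes did not all follow the median. Against the next 200 nt, 46.0% of genes were lower in all 3 samples and 9.58% were higher, and against the coding end 395 were higher and 94 lower.

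**Figure D2:**
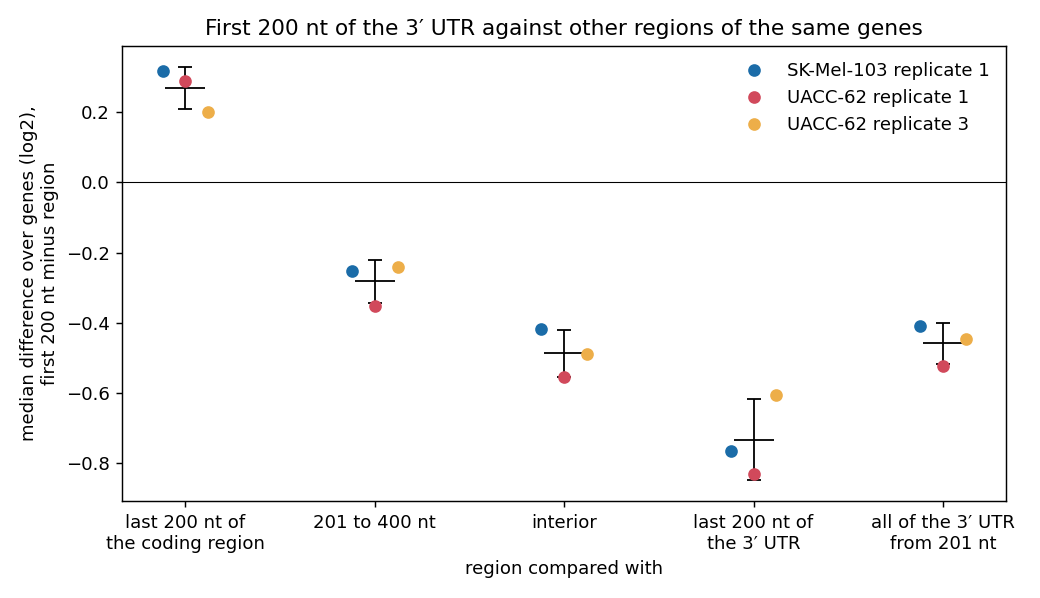
Median over genes of the log2 difference between the first 200 nt of the 3′ UTR and another region of the same transcripts. Points are the 3 samples, and the bar with whiskers is their mean and SD. The window lay above the end of the coding region (0.27) and below the other regions, with the largest distance from the last 200 nt of the 3′ UTR (-0.73).

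To find the genes behind these medians, IP and input reads were tested gene by gene with edgeR for a difference of IP over input between the first 200 nt and the rest of the 3′ UTR, with a term for each library and for the region in each sample. The test pools the spread of the 3 samples from the 2 lines. It leaves 2 residual degrees of freedom per gene, and edgeR draws on the spread of all genes. Very small p-values of single genes therefore do not rest on the 3 samples of that gene alone. Of 1247 genes tested, 586 (47%) were lower after the stop codon and 30 (2.41%) were higher at an adjusted p under 0.05. The median fitted difference was -0.43, the middle 50% of genes lay between -0.80 and -0.12, and 191 genes called lower differed by more than 1 on the log2 scale. In 592 of the 616 genes called, the difference had the same sign in all 3 samples. The calls used these same samples, so this is no separate support. Of all 1247 genes, called or not, 767 were lower in all 3 samples and 85 were higher. Without the replicate block, that is without the terms for each library and for the region in each sample, edgeR called 3 genes lower. Differences between the lines then count as spread. The counts are also relative to the list totals. When TMM factors were computed over all 12 columns, so that the typical difference between regions was removed, the median moved to 0.02, with 210 genes lower and 180 higher. With UACC-62 replicate 3 left out, 1407 genes were tested. Of these, 11 were called higher, 6 of them among the 30, and 436 (31.0%) were called lower.

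**Figure D3:**
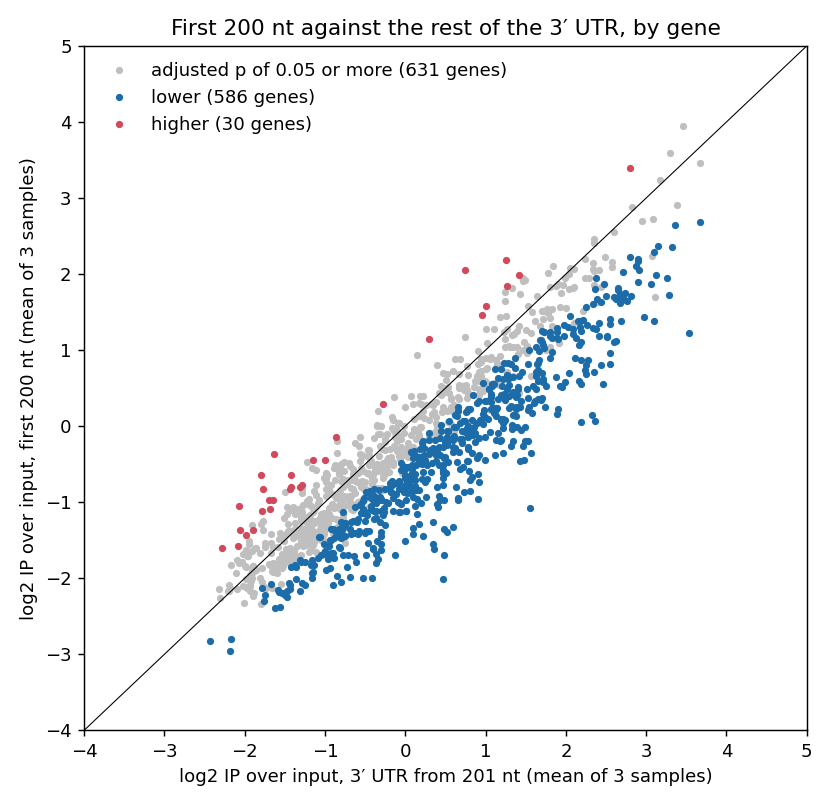
Each point is a gene (n = 1247), with log2 IP over input of the first 200 nt on the y axis and of the remaining 3′ UTR on the x axis, both as means of 3 samples. Blue and red points are the 586 genes called lower and the 30 called higher in edgeR, and the line marks equal values. Most points lie below the line, in 1013 genes by the fitted difference, and the levels of both regions rise together over genes.

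The share of genes called lower was greater in longer 3′ UTRs. It was 41.1% of 494 genes at 1000 to 1999 nt, 49.6% of 367 genes at 2000 to 2999 nt and 52.1% of 386 genes at 3000 to 5000 nt, with median differences of -0.35, -0.45 and -0.55. Longer 3′ UTRs have more bins and reads outside the window, and the part of this in the counts was not tested. The weakest bin of the 3′ UTR, taken as that with the smallest highest-of-3 value, fell in the first 200 nt in 440 of the 1247 genes (35.3%), and the strongest in 99 (7.94%). The window held a mean of 15.7% of a gene's common 3′ UTR bins, and 10.4% of these bins pooled over genes.

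The 6 genes with the steepest contrasts included some with strong IP signal further down. They were taken from genes called and of constant sign, so the choice fixes their lower level in every sample. PPP6C is the catalytic subunit of protein phosphatase 6. Its 5 member bins held 77 IP reads over 140 of input, 48 over 117 and 111 over 101. The resulting levels of -1.23, -1.43 and -0.56 lay below those of the rest of its 3′ UTR, which were 1.10, 1.86 and 1.70, without overlap. The fitted difference was -2.59 ± 0.19 (SE; adjusted p = 1.4e-38). TMED10, a receptor for cargo on its way between the endoplasmic reticulum and the Golgi, had levels of 0.24, -0.30 and 0.27 in the window against 2.10, 2.59 and 2.39 in the rest. RNASEH1, which degrades the RNA of RNA-DNA hybrids, had 1.41, 0.85 and 1.41 against 2.87, 3.57 and 4.16. It thus showed IP signal above input in both regions, with a difference of -2.33 ± 0.17 (SE; adjusted p = 1.65e-37). MIOS, a subunit of the GATOR2 complex upstream of mTORC1, and ADH5, which oxidizes glutathione-bound formaldehyde, differed by -2.29 ± 0.29 and -2.18 ± 0.17 (SE). PPIA, the peptidyl-prolyl isomerase cyclophilin A, had the deepest coverage of these 6 genes, with 1123 IP reads over 2470 of input in SK-Mel-103, and a difference of -2.49 ± 0.15 (SE). Many processed copies of PPIA exist in the genome and the authors' alignment kept reads with up to 20 hits, so its reads are uncertain.

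In the opposite direction, the genes with the largest differences had few reads, and 5 are described. Their higher level in every sample is again fixed by the choice of genes. THUMPD1, a partner of the tRNA acetyltransferase NAT10, had 29 IP reads over 4 of input, 49 over 10 and 42 over 6. Its levels of 2.21, 2.03 and 1.92 were all above the 0.60, 0.83 and 0.80 of the rest of the 3′ UTR, and the difference was 1.42 ± 0.37 (SE; adjusted p = 0.00052). SMC4, a core subunit of the condensin complexes that compact mitotic chromosomes, had 0.85, -1.22 and -0.75 in the window and -1.27, -1.75 and -1.89 in the rest. Here the difference was 1.33 ± 0.23 (SE), and the sample of SK-Mel-103 stood highest. KHSRP, itself a protein that promotes the decay of AU-rich mRNAs, had 1.09, 1.26 and 1.08 against 0.57, 0.07 and 0.25. The enzyme PGM3 of the UDP-GlcNAc pathway and the MYC-network transcription factor MLX were higher as well (PGM3 with levels of -0.11, -1.82 and -0.01, MLX by 1.04). Several of these calls depended on single samples. KHSRP lost its call with DESeq2 (0.94) and when any single sample was left out (0.57 without UACC-62 replicate 1, 0.92 without replicate 3, 0.81 without SK-Mel-103). MLX lost it without UACC-62 replicate 1 (0.56), and PGM3 without UACC-62 replicate 1 (0.30) or replicate 3 (0.46). THUMPD1 and SMC4 kept theirs in each case.

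Levels in the window itself covered a wide range. Of the 8 genes ranked highest by the lowest of their 3 values, 7 are described. These, among those with at least 5 members and a mean of 100 reads, had IP well above input, which the choice of genes fixes. CREBL2, a leucine zipper protein related to CREB, had 2.89, 3.65 and 3.85, and all 10 of its possible bins were listed. SOX13, a SOX family transcription factor, had 2.78, 3.98 and 4.03. LIN52 belongs to the MuvB core that works with B-MYB and DREAM in cell cycle genes, and reached 2.45, 2.40 and 2.52. INCENP, the scaffold of the chromosomal passenger complex in which BIRC5 also acts, had 533 reads over 84, 582 over 66 and 655 over 52, and levels of 2.28, 2.96 and 2.93. The ubiquitin ligase SIAH1 followed with 2.18, 3.01 and 2.90, and HEATR3 and RCCD1 had 2.69, 3.07 and 2.95 and 2.77, 2.62 and 2.64. Of these 7 genes, RCCD1 was called lower in the window than in the rest of the 3′ UTR (-0.98 ± 0.26, SE, adjusted p = 0.00051) and the other 6 were not called. RCCD1 lost its call under TMM (-0.53), where SOX13 (0.82) and LIN52 (0.64) were called higher, and INCENP (-0.64) and SIAH1 (-0.74) were called lower with a window of 100 nt. In the rest of the 3′ UTR, INCENP had 2.31, 3.43 and 3.51 and was similarly high, with a difference of -0.32 that did not pass (adjusted p = 0.144).

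At the other end, again by the choice of genes, were genes with IP below input, of which 3 are described. PA2G4, a growth regulator that binds RNA and ErbB3, had 62 IP reads over 337 of input, 55 over 431 and 65 over 322, with levels of -2.80, -3.10 and -2.99. It differed from the rest of its 3′ UTR by -0.80 ± 0.23 (SE), a call that was lost without UACC-62 replicate 3 (-0.61) or under TMM (-0.37). YWHAE, a 14-3-3 adaptor protein, had -2.04, -2.48 and -2.17 and differed from the rest by -0.74 ± 0.15 (SE), but by -0.29 under TMM, where it was not called. ATP6V0E1 of the vacuolar proton pump had levels of -2.18, -2.24 and -2.30, and its difference of -0.31 did not pass (adjusted p = 0.091). It passed without UACC-62 replicate 1 (-0.52).

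**Figure D4:**
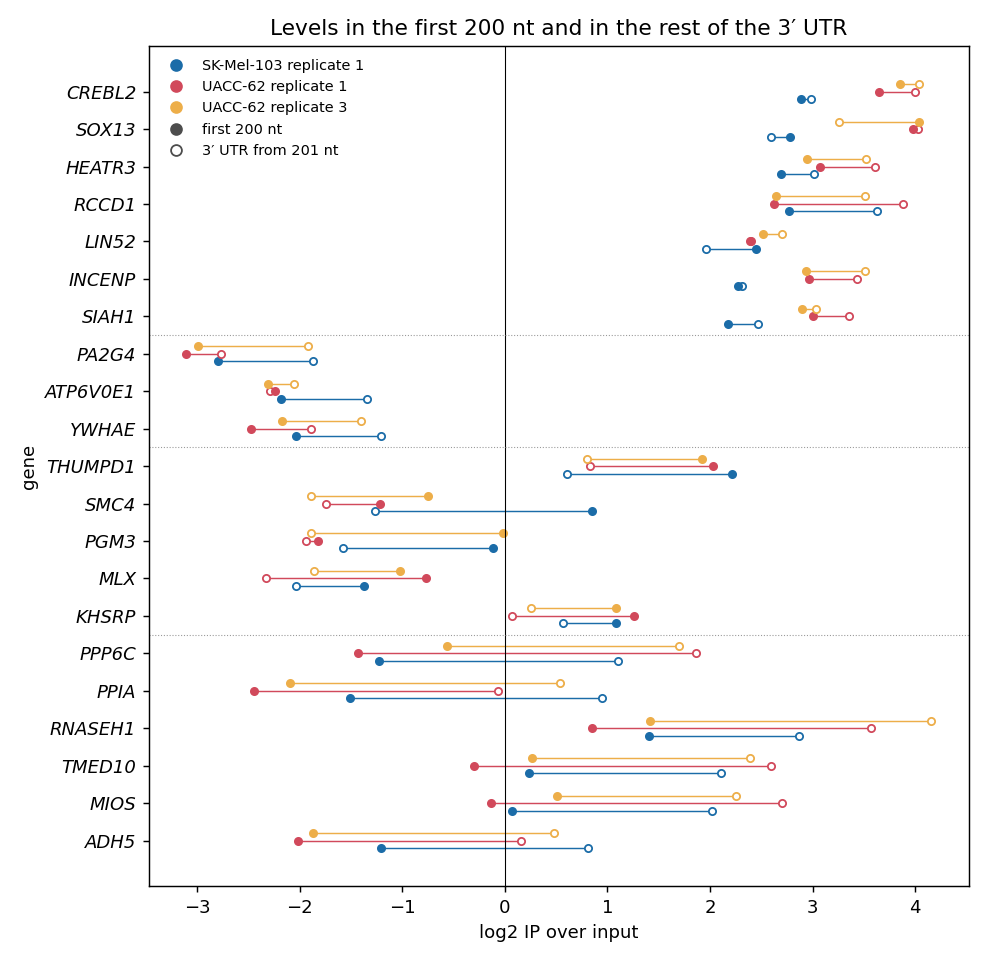
Log2 IP over input of 7 genes with the highest and 3 with the lowest levels in the first 200 nt, and of 5 genes with the largest and 6 with the smallest (most negative) difference from the rest of the 3′ UTR, from top to bottom. Filled points are the first 200 nt, open points the remaining 3′ UTR, and colours are the 3 samples. In the lowest block the filled points lie left of the open ones in all samples, which the choice of genes fixes. In PPP6C they are at -1.23, -1.43 and -0.56 against 1.10, 1.86 and 1.70.

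The genes of 6 functional lists were then looked up. The 7987 eligible genes include those without any common 3′ UTR bin. Only 3624 had such a bin, and 61.6% of these had a member. The shares of genes with members below were not adjusted for this or for expression, and were not tested. Cell division was represented by members in 12 of 15 eligible genes, compared to 2233 of all 7987. Of the 10 tested, 3 were lower in the window and 1 was higher, compared to 47% and 2.41% of all genes tested, with a median difference of -0.25 against -0.43 over all. BIRC5 (survivin), which protects from apoptosis and takes part in chromosome segregation, had 9 members with 379 IP reads over 197 of input, 402 over 244 and 754 over 186. Its levels of 0.57, 0.56 and 1.32 were above 0 in every sample. The rest of its 3′ UTR had 0.99, 0.89 and 1.57, and the difference of -0.33 ± 0.16 (SE) did not pass (adjusted p = 0.063). It was -0.79 with a window of 100 nt, which passed, -0.032 without bins that are coding in another transcript, and 0.12 under TMM. CCND1 (cyclin D1), which drives cells out of G1, had levels of 1.22, 1.59 and 2.31 in the window and 2.37, 3.03 and 3.04 beyond it (-1.11 ± 0.20, SE, adjusted p = 2.43e-07). The phosphatase CDC25B, an activator of CDK1, had 1.56, 1.84 and 2.22 against 2.10, 2.46 and 2.87 (-0.59 ± 0.19, SE, adjusted p = 0.00652), and its call was lost without UACC-62 replicate 3 (-0.57), under TMM (-0.13) and with a window of 100 nt (-0.31). RACGAP1, needed for cytokinesis, was the third gene called lower (-0.66), though not without SK-Mel-103 (-0.52) or under TMM (-0.22), and SMC4 was the gene called higher. Scaled by TMM, the counts in this list turned to 1 lower and 3 higher, with a median of 0.19.

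Of 29 eligible RNA-binding proteins, 22 had members (2233 of all 7987 eligible genes). Of the 15 tested, 9 were lower and 1, KHSRP, was higher (47% and 2.41% of all genes tested), with a median of -0.61. Under TMM 4 were lower and 4 higher (median -0.17). HNRNPK, a poly(C)-binding protein, had 668 IP reads over 571 of input, 673 over 855 and 828 over 715. Its levels of -0.15, -0.50 and -0.49 were below the 0.68, 1.14 and 0.93 of the rest (-1.30 ± 0.15, SE, adjusted p = 2.89e-16). For HNRNPA1, another abundant regulator of splicing, the levels were -0.09, -0.50 and 0.17 against 1.28, 0.80 and 0.90 (-1.14 ± 0.15, SE), and processed copies of this gene are frequent in the genome as well. HNRNPD (AUF1), a binder of AU-rich elements, LARP4 and the splicing regulator MBNL1, which recognizes CUG repeats, had differences of -1.10, -1.08 and -0.80, and MBNL1 was not called under TMM (-0.35). In contrast, ELAVL1 (HuR), which stabilizes AU-rich mRNAs, had a fitted difference of -0.25 that did not pass (adjusted p = 0.166). It was 0.28 in SK-Mel-103 but -0.44 and -0.56 in the UACC-62 replicates, and it was called lower without SK-Mel-103 (-0.49) and with a window of 100 nt (-0.76).

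The mRNA decay list comprised 24 eligible genes, 12 of them with members (2233 of all 7987 eligible genes). Of the 10 tested, 4 were lower and the other 6 were not called (47% lower and a median of -0.43 over all genes tested, -0.45 here), and with TMM 3 were lower. CNOT6, a deadenylase of the CCR4-NOT complex, had 368 IP reads over 71 of input, 350 over 55 and 662 over 66, with levels of 1.98, 2.49 and 2.61 against 2.90, 3.67 and 3.42 in the rest (-0.94 ± 0.20, SE, adjusted p = 1.21e-05). DICER1, which processes microRNA precursors, and the nonsense-mediated decay factor SMG1 were among the others, at -1.15 and -1.09. The P-body protein LSM14A was above input in the window, with 1.33, 1.70 and 0.94, and its difference of -0.34 did not pass (adjusted p = 0.0908). DDX6, a decapping helicase of the same bodies, was below input in both regions, at -1.27, -2.17 and -1.39 against -1.20, -1.78 and -1.37.

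In the RAS to ERK list, 12 of 19 eligible genes had members, compared to 2233 of all 7987. Of 8 tested, 2 were lower (47% over all genes tested, and 1 of the 8 under TMM). These were DUSP6, a phosphatase acting on ERK (-1.02), and the 14-3-3 protein YWHAB (-0.47 ± 0.15, SE, adjusted p = 0.00644), whose call was lost without UACC-62 replicate 1 (-0.40) or replicate 3 (-0.42), with limma (-0.47), under TMM (-0.019) and with a window of 100 nt (-0.44). NRAS, the oncogene of many melanomas, had a difference of -0.095 (adjusted p = 0.718). Members were found in 4 of 14 eligible apoptosis genes and 4 of 18 melanoma and pigment genes (2233 of 7987 over all). The 2 tested in each list were lower (47% of all genes tested), with 1 in each list still lower under TMM. CASP2, an initiator caspase, had 1.05, 1.24 and 1.78 against 2.12, 2.39 and 2.71 (-1.03 ± 0.21, SE). MCL1, a survival factor of the BCL2 family, had -0.19, -0.66 and -0.60 against 0.32, -0.46 and -0.04 (-0.43 ± 0.16, SE, adjusted p = 0.0194), and its call was lost without UACC-62 replicate 3 (-0.38) or SK-Mel-103 (-0.38), with limma (-0.42), under TMM (0.0069) and with a window of 100 nt (-0.37). SPARC, a matrix glycoprotein high in melanoma, was below input in the window, with 332 IP reads over 650 of input, 958 over 1964 and 801 over 1291, and levels of -1.34, -1.19 and -1.39 against -0.39, -0.18 and -0.17 (-1.06 ± 0.16, SE). LEF1, a nuclear partner of beta-catenin, differed by -0.70 ± 0.24 (SE), and was not called without UACC-62 replicate 1 (-0.49), without bins coding elsewhere (-0.55) or under TMM (-0.23). MYC had 4 members with levels of -0.31, -1.54 and -1.79 and too few bins beyond the window for the test. The oncogene DEK was eligible with a 3′ UTR of 1801 nt in the transcript chosen and had 0 members, where the choice of transcript by coding length does not depend on which transcript these cells express. AURKA, CELF1 itself, MCM3 and MCM4 were not eligible by the rule.

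Finally, the sequence of the members was examined (DNA letters, transcript strand, within the 20-nt bin). Members contained 30.8% T and had a GC content of 41.3%, compared to 27.9% T and 45.7% GC in all 79713 bins of the window in eligible genes. Bins of the same genes that were listed in no sample had 32.4% T and 39.3% GC. The stretch after the stop codon was poorer in T than the distal 3′ UTR, as common bins had 32.8% T in the next 200 nt and 34.8% in the last 200 nt, and only 22.8% in the last 200 coding nt. The heptamer TGTTTGT was found in 36 members (0.398%) and in 0.261% of all bins of the window, and TGTGTGT in 40 members (0.442%) and 0.379%. For TGTTT the shares were 5.47% and 4.04%, and for TGTGT 3.21% and 2.62%. Unlisted bins of the same genes had TGTTTGT in 0.547%, TGTGTGT in 0.379%, TGTTT in 5.98% and TGTGT in 2.84%, so that the shares of TGTTTGT and TGTTT were higher there than in members. CTG occurred in 34.9% of members and 37.3% of all bins, ATTTA in 3.19% and 2.89%, and the Pumilio motif TGTANATA in 0.265% and 0.248%. TGTTT and TGTGT can overlap the longer motifs that contain them, and motifs that cross a bin boundary were not counted.

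Bins with the GU-rich heptamers had higher levels than bins without. For TGTTTGT, whose 36 bins lay in 36 genes, the medians differed by 1.25, 1.15 and 0.93 (1.11 ± 0.16, SD, n = 3). TGTGTGT gave 1.05, 0.83 and 0.77 (0.88 ± 0.15) from 40 bins in 33 genes. The short motifs TGTTT and TGTGT were associated with smaller differences of 0.22 ± 0.06 and 0.26 ± 0.04, while CTG gave 0.0066 ± 0.02 and ATTTA -0.21 ± 0.09. Bins with TGTANATA differed by -0.42, 0.08 and 0.26, with opposite signs in the 2 lines. Of 7 motifs compared, the 5 with a constant sign reached p = 0.25 in the exact 2-sided sign-flip permutation test, the smallest it can give with 3 samples (0.35 after Benjamini-Hochberg adjustment). In the remaining 3′ UTR the same heptamers gave 0.61 ± 0.07 (TGTTTGT, 416 bins) and 0.85 ± 0.17 (TGTGTGT, 540 bins), and whether these differ from the values after the stop codon was not tested. The base composition of the bins varied with the motif, and its part in these differences was not tested. Over classes of GC content, median levels of members ranged from -0.18 to -0.05, from -0.67 to -0.42 and from -0.48 to -0.11 in the 3 samples.

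The bins with a heptamer and the most IP reads show levels both above and below 0 (4 genes for each heptamer, marked by capitals).
CBX3, chr7:26251941-26251960, + strand: taTGTTTGTtttgaaagtag
BTF3L4, chr1:52552561-52552580, + strand: cTGTTTGTtcagcatttttc
EEF1A1, chr6:74227461-74227480, - strand: tctcagaacTGTTTGTttca
PTGES3, chr12:57058121-57058140, - strand: ccatttttcaaccTGTTTGT
TFDP1, chr13:114294761-114294780, + strand: tggaTGTGTGTtttgatacc
SEPTIN2, chr2:242291421-242291440, + strand: catgatccagcTGTGTGTtt
PEA15, chr1:160183401-160183420, + strand: actgtgcgcgTGTGTGTgcg
TNFRSF21, chr6:47200401-47200420, - strand: gttgtttggggTGTGTGTgt
In CBX3, which encodes the heterochromatin protein HP1 gamma, the bin had 131 IP reads over 9 of input, 416 over 46 and 633 over 75 (levels of 3.35, 2.99 and 2.36). The bin of TFDP1, the dimerization partner of E2F, had 118 over 13, 74 over 11 and 160 over 9 reads (2.71, 2.49 and 3.31). That of the translation elongation factor EEF1A1, in contrast, had 293 over 617, 144 over 703 and 306 over 629 reads, and levels of -1.45, -2.44 and -1.73. PTGES3, the co-chaperone p23, had 1.18, -0.77 and -0.20, and BTF3L4 had 0.85, 1.53 and 0.71. CBX3, EEF1A1 and PTGES3 have processed copies in the genome, and reads may be shared with them. TNFRSF21, a death receptor, had 1.55, 2.29 and 1.97 with the same heptamer as TFDP1, and the cytoskeletal septin SEPTIN2 had 0.31, -0.41 and 0.12. The bin of PEA15, a regulator of ERK localization, differed most between samples among those shown, with 5 reads over 74, 82 over 95 and 114 over 61 and levels of -4.02, -0.37 and 0.19.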

How the data were processed

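Per bin of 20 bp the authors deposited raw read counts of the IP, for those bins that passed. Reads of 40 nt had been aligned to GRCh37 by TopHat, with first-strand settings (TopHat2 2.0.4 and Bowtie 0.12.7 in the submitters' processing notes) and binned with Piranha, with input as covariate. The p-value of each bin, deposited by the authors, was not used further here. The ratio in the last column deposited by the authors is the scaled input of each bin (0.01 without input). Input reads were recovered from it as whole multiples of its smallest step (100% whole within 0.05 read). Replicates were not pooled. The transcript strand is the reverse of that listed. Genes came from GENCODE 44 mapped to GRCh37. Of 8048 genes with a 3′ UTR of fitting length, 64 were readthrough genes, which were not removed as a class. The 8903 bins within reach of several genes were given to a single gene. Of the 8048 genes, 7987 then had bins and counted as eligible.

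Log2 IP over input used list totals and 1 added read, in genes with at least 3 bins per region. Medians were compared over samples by exact sign-flip permutation tests. Genes with a mean of at least 10 reads over the 12 columns (6 libraries, each with both regions) were tested by edgeR's quasi-likelihood test (edgeR 4.0.16, R 4.3.3). Library sizes were set to list totals, with Benjamini-Hochberg adjustment. The SE of a gene is its fitted difference, without the sign, divided by the square root of the F value of that test. In data simulated for that comparison (1247 genes), edgeR called 92 of 100 genes changed by 1, 100 of 100 changed by 2 and 4 of 1047 unchanged genes. Those counts were drawn independently from edgeR's own fitted means and spread, with as many genes raised as lowered. The median difference in the data was -0.43, so the simulation does not give the error rate of the real calls. IP and input were paired by replicate number, as in the authors' calls, and their deviations from the 3-sample mean correlated at 0.72, 0.55 and 0.57 in the 3 pairs. Across the UACC-62 replicates the correlation was 0.20 for IP 1 with input 3 and 0.33 for IP 3 with input 1. These deviations include the difference between the lines. Alternatives used DESeq2 1.42.0, limma 3.58.1, TMM, other filters and windows, and left out samples in turn. Analyses ran in Python 3.11.15 with pandas 2.3.3, scipy 1.17.1 and pysam 0.24.0.

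Genes named are the 8 highest and 6 lowest levels (at least 5 bins, 100 reads), the 6 largest and 6 smallest (most negative) differences among genes called and of constant sign, the 3 genes of each list with the most IP reads, and DEK, BIRC5, AURKA and CELF1. Some genes that the rule names are not reported here. Other list genes, NRAS and the bins with heptamers were named after their values were seen. Members, lists and tests were chosen with earlier results of these data known. Intervals and tests cover the spread of these 3 samples only, which may be technical.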

Additional observations from a re-analysis of the deposited data

Results flagged for a closer look

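In 2 of the 45 named genes that were tested, the difference between the first 200 nt and the rest of the 3′ UTR had the opposite sign in SK-Mel-103 and in both UACC-62 replicates. SRSF3, a splicing factor, had 0.42 against -0.27 and -0.12. ELAVL1, a binder of AU-rich elements, had 0.28 against -0.44 and -0.56. Such a split occurred in 137 of all 1247 genes tested. SK-Mel-103 had a single sample, and the difference between the lines was not tested.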

How the results depend on the processing

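The differences between the window and the next 200 nt, the last 200 nt, the rest of the 3′ UTR and the coding end kept their direction under each alternative run for them. Among these alternatives, scaling by the totals of the common bins cannot change a difference within a sample. Requiring more than 30 IP reads left 948 members in 307 genes and 11.7% of the window listed, and turned the mean of the median levels from -0.58 to 0.27. This filter acts on the IP reads alone and so favours higher levels. The same filter left 124 genes tested, with 74 lower and 2 higher. A window of 100 nt had 4334 members, with 370 genes lower and 12 higher of 711 tested. DESeq2 called 13 genes higher. TMM over the columns, which removes the typical difference between regions, gave 210 lower and 180 higher. Without the replicate block (the terms for each library and for the region in each sample), 3 genes were lower and 0 higher. In edgeR 184 were at an unadjusted p under 0.05 (681 with the block), and 30 of the 31 named genes called lost their call. Without 1 sample at a time, 11 to 27 genes were higher and 436 to 596 lower, but more genes were then tested. These were 1617 without UACC-62 replicate 1, 1407 without replicate 3 and 1671 without SK-Mel-103. The shares called lower were 31.6%, 31.0% and 35.7%, compared to 47% with all samples. Of the 586 genes called lower with all samples, 431, 417 and 461 were called again. TGTTT was in 6.65% and TGTGT in 4.32% of members with more than 30 IP reads, and in 12.2% and 6.71% with 10 nt added on each side.

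Among named genes, 8 of those called (RCCD1, PA2G4, YWHAE, CDC25B, RACGAP1, MBNL1, LEF1 and YWHAB) lost their call under TMM without a change of sign, and SOX13, LIN52 and SRSF3 (0.46) gained a call. TMM reversed MCL1 (0.0069), which had been called, and CREBL2 (0.26), HEATR3 (0.052), INCENP (0.12), SIAH1 (0.18), ATP6V0E1 (0.14), BIRC5 (0.12), LSM14A (0.11), DDX6 (0.29), PEA15 (0.14), NRAS (0.35) and ELAVL1 (0.20). SRSF3 reversed with more than 30 reads (-0.0057) and in 100 nt (-0.20), and ATP6V0E1 in 100 nt (0.035). Without 1 sample, LIN52 ranged from -0.038 to 0.32, NRAS from -0.21 to 0.052 and SRSF3 from -0.19 to 0.17, none of them called in any of these fits. Bins that did not pass are missing, and all levels are conditional on listing. Leaving out SK-Mel-103 was added after seeing the data.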
